A study of Oryctolagus cuniculus with 3 samples.

Results

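Genes of cholesterol efflux and of the liver X receptors (LXR) were followed in aortic media, which is the smooth muscle layer of an artery, from male JW/CSK rabbits aged 9 months. A list of 9 symbols was matched to the symbol field of the deposited gene table. A row was used for 8 of them, out of 15248 rabbit rows, and all 8 averaged at least 1 FPKM across libraries, the limit that 11597 rabbit genes passed. APOE is not analysed here. FPKM (fragments per kilobase of gene, scaled to the mapped total) take account of gene length and library size, so levels can be set side by side between genes of a library; between libraries they also depend on the scaling, since the FPKM sums differ.

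The 3 libraries were transgenic rabbits carrying a mouse PGC1-alpha gene on a high cholesterol diet for 20 weeks, non-transgenic rabbits on the same diet for 20 weeks, and non-transgenic rabbits on chow. PGC1-alpha is a transcriptional coactivator of mitochondrial biogenesis, and the sources used here do not give the promoter of the transgene. Each library pooled the RNA of 5 rabbits, and there was 1 library per group. No value therefore has an error, there is no p-value, and replicates are lacking as a check on any difference. The chow library was sequenced on lane 3 and the other libraries on lane 2, so lane and diet cannot be told apart. Mouse Ppargc1a stood at 12.8 FPKM in the transgenic library and had a listed value of 0 in each non-transgenic one.

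LXR-alpha (NR1H3) and LXR-beta (NR1H2) are nuclear receptors that bind oxysterols, oxidised forms of cholesterol, and act on DNA as partners of the retinoid X receptors. When a cell takes up more cholesterol than it uses, they switch on genes that export it, load it onto apolipoproteins, remodel membrane phospholipids and limit further uptake. In the arterial wall this program is best known from macrophages that turn into foam cells, and smooth muscle cells also use it.

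On the cholesterol diet 6 of the 8 genes were at least 2-fold higher than on chow in non-transgenic rabbits, namely ABCA1, ABCG1, APOC1, NR1H3, LPCAT3 and PLTP. A difference here is that of log2(FPKM + 1), and 2-fold means a difference of at least 1 on that scale, which understates the change of low genes. Among the 11597 genes the share at least 2-fold higher was 15.9% and the share at least 2-fold lower 6.99%, and none of the 8 was at least 2-fold lower. On this scale a gene below 1 FPKM on chow cannot come out at least 2-fold lower. That holds for APOC1, listed at 0 on chow, and for ABCG1, at 0.14 FPKM. Both passed the limit of 1 FPKM only through the cholesterol libraries. The median difference was 2.84 over the 8 genes, or 2.37 over the 7 that were above 0 in every library, against 0.02 over all genes. NR1H2 and MYLIP differed by less than 2-fold. Bulk RNA cannot tell apart more cells of a type and more RNA per cell.

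Between transgenic and non-transgenic rabbits, both on the cholesterol diet, none of the 8 genes differed by 2-fold. Over the whole set of genes, 1.70% stood at least 2-fold higher in the transgenic library and 2.10% at least 2-fold lower, that is 197 and 244 genes, a balance that turned to 275 and 196 with libraries scaled to equal FPKM sums. The median difference of the 8 was -0.08, against -0.01 over all genes, with 5 of the 8 lower in the transgenic library, where 51.7% of all genes were. With that scaling 3 of the 8 were lower, and 4 when mitochondrial DNA genes were left out of those sums. These scalings also moved the median of all genes, to 0.10 and 0.08, so the 51.7% does not apply to them. APOC1, ABCA1 and LPCAT3 lay lowest relative to the non-transgenic library and MYLIP lay highest.

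**Figure D1:**
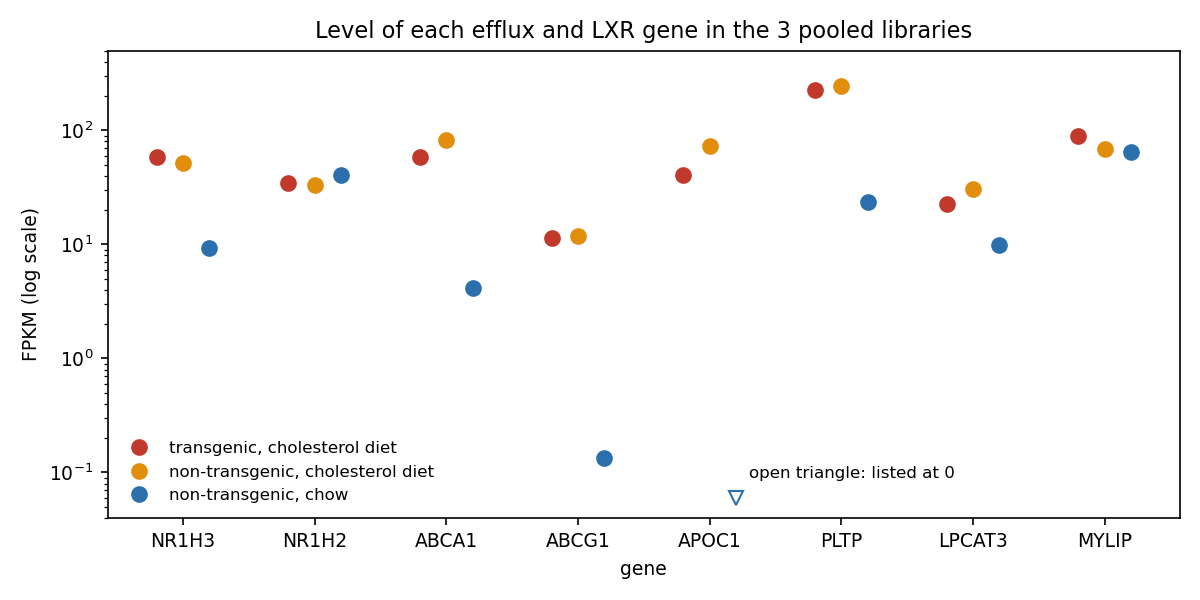
FPKM (log scale) of the 8 genes in the transgenic cholesterol, non-transgenic cholesterol and non-transgenic chow libraries, 1 point per library of 5 pooled rabbits and no error bars. The chow point lies below both cholesterol points for 6 genes, slightly below them for MYLIP and above them for NR1H2, and APOC1 is listed at 0 on chow.

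The receptors, which stand at the head of the pathway, differed from each other. NR1H3, which is itself an LXR target in human macrophages (ENSOCUG00000002095, OryCun2.0 chromosome 1, 186608829 to 186615938), stood at 58.9 FPKM in transgenic and 52.1 FPKM in non-transgenic rabbits on the diet, against 9.25 FPKM on chow. Both cholesterol libraries were well above the chow library. The diet difference of NR1H3 in non-transgenic rabbits was 2.37, a ratio of 5.63, and 605 of the 11597 genes had a larger one. Its genotype difference was 0.17, and 42.8% of genes had a smaller difference in size.

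NR1H2 (ENSOCUG00000027789, contig AAGW02082616, 21 to 5021) stood at 34.9 FPKM in transgenic and 33.0 FPKM in non-transgenic rabbits on the diet, against 41.0 FPKM on chow. These levels lie close together, with the chow library highest. Its diet difference was -0.31 and its genotype difference 0.08. The row lies at the edge of a short contig, and whether it covers the whole gene was not tested.

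NR1H3 thus exceeded NR1H2 on the diet and lay below it on chow. The ratio of NR1H3 to NR1H2 was 1.69 in the transgenic and 1.58 in the non-transgenic cholesterol library, against 0.23 in the chow library. The summed FPKM of the pair was 93.7, 85.1 and 50.2 in the same libraries.

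**Figure D2:**
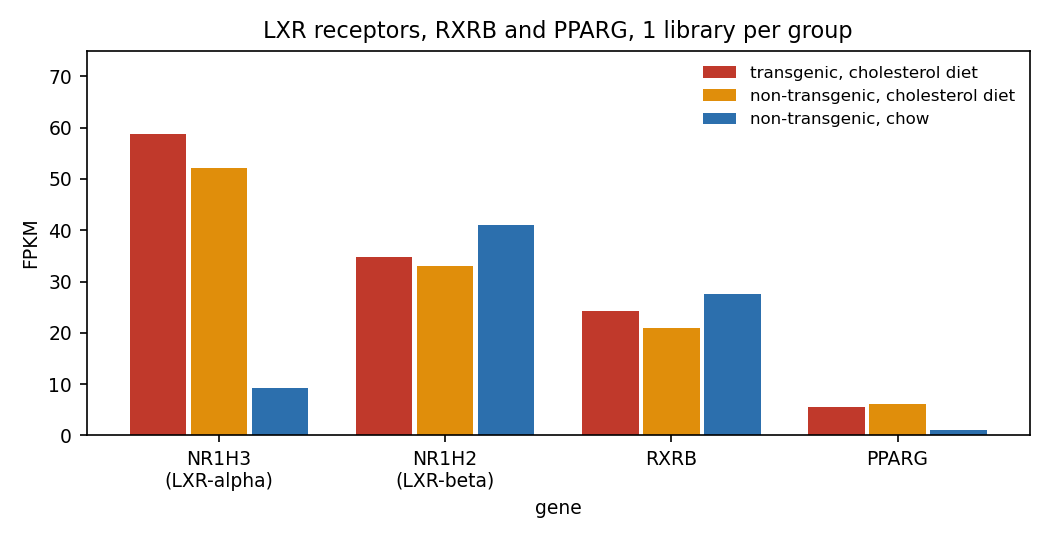
FPKM of NR1H3, NR1H2, RXRB and PPARG in the transgenic cholesterol, non-transgenic cholesterol and chow libraries (bars from 0, 1 library each, no error bars). NR1H3 and PPARG bars are taller in both cholesterol libraries than on chow, and NR1H2 and RXRB bars are slightly taller on chow.

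The transporters ABCA1 and ABCG1 move cholesterol out of the cell, ABCA1 mainly to lipid-poor apolipoprotein A-I and ABCG1 to formed HDL particles. ABCA1 (ENSOCUG00000009279, chromosome 1, 8128276 to 8262632) stood at 58.6 FPKM in transgenic and 82.6 FPKM in non-transgenic rabbits on the diet, against 4.13 FPKM on chow. The diet difference of ABCA1 was 4.03, a ratio of 20.0, and 181 genes had a larger one. In the transgenic library ABCA1 was 29.0% lower than in the non-transgenic cholesterol library, a difference of -0.49 that exceeded in size those of 82.3% of genes.

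ABCG1 (ENSOCUG00000022308, scaffold GL019290, 47523 to 89097) stood at 11.5 FPKM in transgenic and 11.8 FPKM in non-transgenic rabbits on the diet, against 0.14 FPKM on chow. Unlike ABCA1, it was nearly level between the cholesterol libraries, at -0.03, and 8.44% of genes had a smaller difference in size. The diet difference of ABCG1 was 3.49 and the ratio of its FPKM was 87.0, a ratio that rests on the low chow value. At the depth estimated from single-exon genes, that chow value corresponds to at most 35.1 fragments, the number reached if the whole locus were exonic. ABCA1 exceeded ABCG1 by 5.10 times in the transgenic, 7.02 times in the non-transgenic cholesterol and 30.6 times in the chow library, on FPKM.

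Among the genes for proteins that carry or transfer lipid outside the cell, APOC1 encodes apolipoprotein C-I, a small component of HDL and of triglyceride-rich particles. It (ENSOCUG00000024530, scaffold GL019011, 106234 to 108836) stood at 40.9 FPKM in transgenic and 73.4 FPKM in non-transgenic rabbits on the diet and was listed at 0 on chow. An exact 0 in such a table can be a failed estimate, so no ratio to chow is given. APOC1 was 44.3% lower in the transgenic than in the non-transgenic cholesterol library, a difference of -0.83, the largest in size among the 8 genes, and 94.2% of all genes had a smaller one.

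PLTP encodes the phospholipid transfer protein, which moves phospholipid from triglyceride-rich particles to HDL. This gene (ENSOCUG00000000744, scaffold GL018725, 888399 to 901462) stood at 226 FPKM in transgenic and 246 FPKM in non-transgenic rabbits on the diet, against 23.8 FPKM on chow. It was the most abundant of the 8 in both cholesterol libraries, above 96.9% of rabbit rows in the transgenic and 97.0% in the non-transgenic one, and came after MYLIP and NR1H2 on chow. Its diet difference was 3.32, a ratio of 10.3, and its genotype difference -0.12.

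LPCAT3 is the enzyme that puts polyunsaturated chains into membrane phosphatidylcholine. It (ENSOCUG00000014461, chromosome 8, 32980620 to 33025118) stood at 22.4 FPKM in transgenic and 30.3 FPKM in non-transgenic rabbits on the diet, against 9.92 FPKM on chow. With a diet difference of 1.52 and a ratio of 3.06, LPCAT3 had the smallest difference of the 6 higher genes. The transgenic library was 26.0% below the non-transgenic cholesterol library for this gene, a difference of -0.42.

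MYLIP, also called IDOL, is the ubiquitin ligase through which LXR lower the LDL receptor. The gene (ENSOCUG00000008005, scaffold GL018711, 3878180 to 3900624) stood at 89.8 FPKM in transgenic and 69.3 FPKM in non-transgenic rabbits on the diet, against 64.1 FPKM on chow. It was the most abundant of the 8 genes on chow. The diet difference of MYLIP was 0.11, near the middle of all genes, of which 55.4% lay below it. Its genotype difference of 0.37 was the highest of the 8, and 72.9% of genes had a smaller difference in size.

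**Figure D3:**
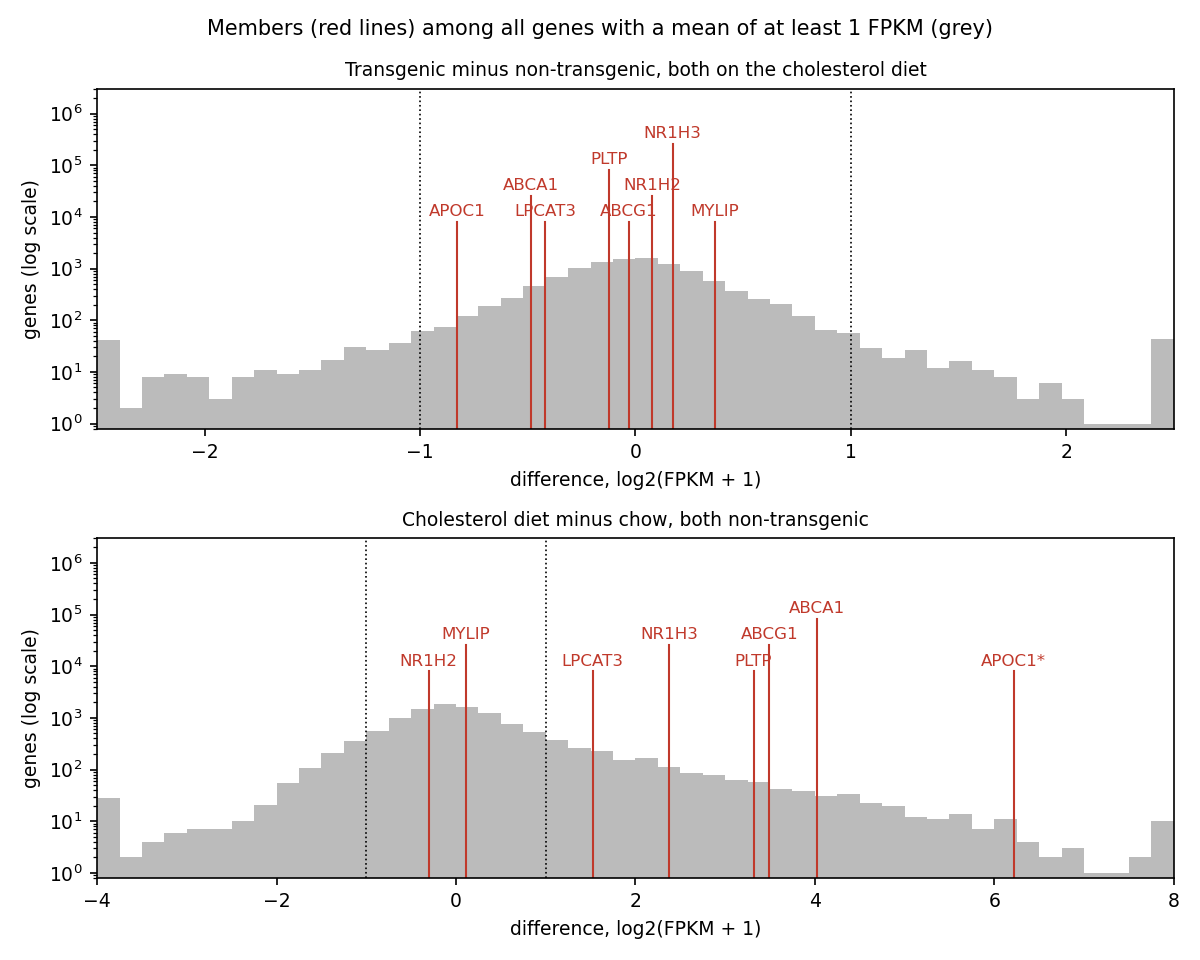
Histograms of the difference in log2(FPKM + 1) over 11597 rabbit genes (grey, gene number on a log scale), with the 8 genes as red lines and dotted lines at a 2-fold difference; the outermost bars also hold the genes beyond the axis. In the upper panel (transgenic minus non-transgenic, cholesterol diet) all 8 lie between the dotted lines, from APOC1 at -0.83 to MYLIP at 0.37, and in the lower panel (cholesterol diet minus chow, non-transgenic) 6 lie right of them, with APOC1 marked by a star because it is listed at 0 on chow.

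Transgenic rabbits on the diet were also set against non-transgenic rabbits on chow, a comparison in which genotype, diet and lane differ together and which shares its libraries with the other comparisons. The same 6 genes were at least 2-fold higher, against 12.6% of all genes, and none was at least 2-fold lower, against 2.53%. As in the diet comparison, APOC1 and ABCG1 could not have come out at least 2-fold lower. The differences were 3.54 for ABCA1, 3.46 for ABCG1, 3.19 for PLTP, 2.55 for NR1H3 and 1.10 for LPCAT3. MYLIP stood at 0.48 and NR1H2 at -0.23, or at 0.05 with libraries scaled to equal sums without mitochondrial DNA genes. With a pseudocount of 5 the LPCAT3 difference was 0.88, and 5 genes were at least 2-fold higher.

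Other genes of the pathway were taken from lists of partners and cofactors, oxysterol enzymes, further LXR targets, and cholesterol release and efflux. Among 13 measured partners and cofactors, the diet difference reached 2-fold for 2 (none with a pseudocount of 5), both higher, a share near the 15.9% of all genes, and its median was -0.22. PPARG, a lipid-sensing receptor upstream of NR1H3 in mouse macrophages, stood at 5.55 FPKM in transgenic and 6.04 FPKM in non-transgenic rabbits on the diet, against 1.07 FPKM on chow, a diet difference of 1.77. PPARGC1B, a coactivator related to PGC1-alpha, stood at 4.01, 5.11 and 1.60 FPKM in the same libraries, a diet difference of 1.23.

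The retinoid X receptor RXRB, a binding partner of both LXR, stood at 24.2 FPKM in transgenic and 20.9 FPKM in non-transgenic rabbits on the diet, against 27.5 FPKM on chow. RXRG was below 0.2 FPKM in all 3 libraries, and RXRA is not analysed here. The corepressor NCOR1, which holds LXR target genes silent when no ligand is bound, had a diet difference of -0.61 and a genotype difference of 0.33. In the genotype comparison none of the 13 reached 2-fold, against 1.70% of all genes higher and 2.10% lower. Of the 13, 9 were above 0 where 48.1% of all genes were. With equal sums 11 were, but that scaling also moved the median of all genes from -0.01 to 0.10. With equal sums without mitochondrial DNA genes the number was 9. PPARGC1B was at -0.29.

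Of the enzymes that make or clear oxysterols, 6 were measured. On the diet 2 of them stood at least 2-fold higher and 1 at least 2-fold lower (none lower with a pseudocount of 5, or with equal sums without mitochondrial DNA genes), against 15.9% and 6.99% of all genes, and the median was -0.10, or 0.06 with equal sums without mitochondrial DNA genes. CH25H makes 25-hydroxycholesterol and stood at 9.93 FPKM in transgenic and 13.5 FPKM in non-transgenic rabbits on the diet, against 1.46 FPKM on chow, a diet difference of 2.56. CYP7B1, which clears oxysterols by hydroxylation, stood at 6.37, 8.84 and 1.20 FPKM in these libraries, a diet difference of 2.16. A maker and a remover of oxysterols were therefore both higher on the diet.

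CYP27A1, which makes 27-hydroxycholesterol and is the most abundant maker of oxysterol in this set, stood at 35.7 FPKM in transgenic and 28.7 FPKM in non-transgenic rabbits on the diet, against 56.7 FPKM on chow, a diet difference of -0.96. In the genotype comparison none of the 6 reached 2-fold, against 1.70% of all genes higher and 2.10% lower. EPHX1, an epoxide hydrolase, was at 0.51 and CYP7B1 at -0.42.

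Among the 12 measured further LXR targets, 5 stood at least 2-fold above chow on the diet and none 2-fold below, against 15.9% and 6.99% of all genes, with a median of 0.53. LPL, the lipoprotein lipase, stood at 35.9 FPKM in transgenic and 49.6 FPKM in non-transgenic rabbits on the diet, against 6.23 FPKM on chow, a diet difference of 2.81. APOD, a lipocalin carried on HDL, had 297, 238 and 65.3 FPKM in the same libraries and a diet difference of 1.85.

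SREBF1, through which LXR raise fatty acid synthesis, stood at 35.4 FPKM in transgenic and 31.9 FPKM in non-transgenic rabbits on the diet, against 12.9 FPKM on chow, a diet difference of 1.24. Fatty acid enzymes of the same list had diet differences of 1.24 for the elongase ELOVL5, 0.56 for the synthase FASN, -0.07 for the carboxylase ACACA, and -0.35 and 0.33 for the desaturases FADS1 and FADS2. The FASN row covers only positions 5914 to 6349 of contig AAGW02083527 and therefore a small piece of the gene.

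Between genotypes 1 of these 12 targets differed by at least 2-fold, lower in the transgenic library, and none did with a pseudocount of 5 or equal sums. Over all genes 2.10% were at least 2-fold lower and 1.70% higher. CD5L, a scavenger-receptor protein secreted by macrophages, was at 0.58 and FASN at -0.49. The median genotype difference of the 12 was 0.05.

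Among 18 measured genes of the cholesterol release and efflux list, 8 stood at least 2-fold above chow on the diet and none 2-fold below. The shares over all genes were the same 15.9% and 6.99%, and the list median was 0.60. The 8 include SOAT1, which esterifies cholesterol, and the phospholipid transporter ABCA3. LIPA, the lysosomal acid lipase, stood at 316 FPKM in transgenic and 300.0 FPKM in non-transgenic rabbits on the diet, against 29.1 FPKM on chow. NPC2, which hands cholesterol from the lysosome lumen to its membrane partner NPC1, stood at 499, 566 and 120 FPKM. Diet differences were 3.32 for LIPA, 2.23 for NPC2 and 1.20 for NPC1.

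ABCA3, a phospholipid transporter known from lung surfactant, stood at 22.0 FPKM in transgenic and 23.3 FPKM in non-transgenic rabbits on the diet, against 2.72 FPKM on chow. The enzymes of cholesterol esters did not go 1 way. Of those that esterify cholesterol, SOAT1 had a diet difference of 2.15 and LCAT, which acts on HDL, of -0.83. Of the ester hydrolases LIPA was at 3.32, NCEH1 at 1.65 and LIPE at -0.20. LIPE was low, at 2.90, 1.94 and 2.37 FPKM in the transgenic cholesterol, non-transgenic cholesterol and chow libraries. Carriers of sterol between membranes also ranged widely on the diet, with STARD4 at 1.52, GRAMD1B at 1.41, STARD3 at 0.45, OSBPL1A at -0.19 and GRAMD1A at -0.40. SCARB1, the HDL receptor, stood at 14.1, 13.2 and 7.44 FPKM, under 2-fold. APOA1, the main acceptor of ABCA1, was at most 0.14 FPKM in any library.

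In the genotype comparison none of these 18 genes reached 2-fold, against 1.70% of all genes higher and 2.10% lower, with a median of 0.08. ABCG4, a close relative of ABCG1, stood at 4.52 FPKM in transgenic and 2.66 FPKM in non-transgenic rabbits on the diet, a difference of 0.59, and at 2.52 FPKM on chow. LCAT was at 0.53 and SOAT1 at -0.44.

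**Figure D4:**
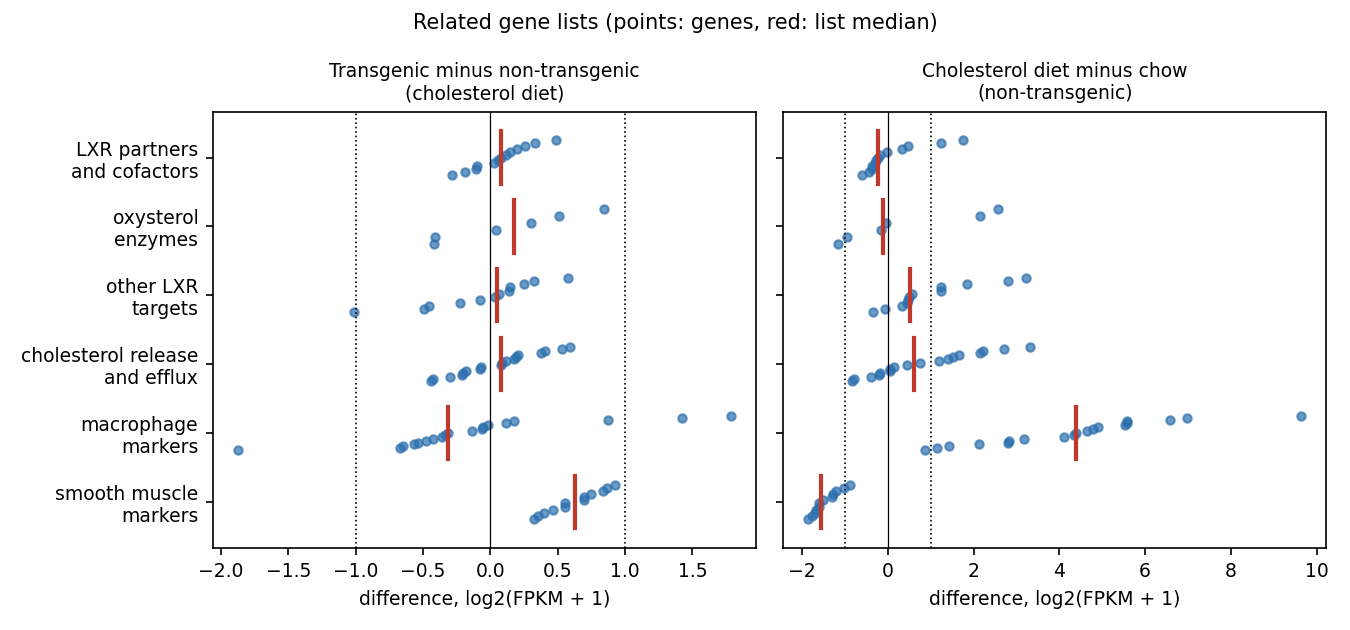
Differences in log2(FPKM + 1) of the measured genes (points) of 4 pathway lists and 2 marker lists, with list medians as red bars and dotted lines at 2-fold, for transgenic minus non-transgenic (left) and cholesterol diet minus chow (right); the horizontal ranges of the panels differ. On the right the macrophage median lies at 4.39 and the smooth muscle median at -1.56, and on the left the medians of the 4 pathway lists lie between 0.05 and 0.17.

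Markers of other cell types moved with the diet difference. For macrophages and foam cells, 18 of the 19 measured markers reached 2-fold, all higher on the diet, with a median of 4.39. Over the 20 rows with a value, the summed level was 4244 FPKM in transgenic and 4425 FPKM in non-transgenic rabbits on the diet, against 78.2 FPKM on chow, where ITGAX, MARCO and SPI1 were listed at 0. GPNMB (2010, 2034 and 1.54 FPKM), LAPTM5 (505, 681 and 13.4 FPKM) and CD68 (348, 434 and 3.56 FPKM) had the highest means over the 3 libraries. The part of macrophage content in the higher efflux genes was not tested.

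Contractile smooth muscle markers were lower on the diet by at least 2-fold in 11 of 12 genes, against 6.99% of all genes. Their summed level was 17020 FPKM in transgenic and 12371 FPKM in non-transgenic rabbits on the diet, against 30164 FPKM on chow. ACTA2, TAGLN and MYH11 were the most abundant, and these markers do not test whether other layers of the wall were included. All 12 were higher in the transgenic than in the non-transgenic cholesterol library, where 48.1% of all genes were, by a median of 0.63. None differed by 2-fold (1 with equal sums). Macrophage markers were lower in the transgenic library in 14 of 19 genes, against 51.7% of all genes, with a median of -0.32. With equal sums, which moved the median of all genes to 0.10, 11 of the 19 were lower. C1QB and C1QC were nevertheless at least 2-fold higher, against 1.70% of all genes, and MSR1 was at least 2-fold lower, against 2.10%. The part of these marker differences in the lower APOC1, ABCA1 and LPCAT3 was not tested.

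Markers of further cell types were read in the same way. Endothelial markers summed to 232 FPKM in transgenic and 184 FPKM in non-transgenic rabbits on the diet, against 142 FPKM on chow. Their diet differences were above 0 in 8 of 10 genes, where 51.1% of all genes were, but ESAM was at -1.07 and CLDN5 at -0.33. Fibroblast markers summed to 1105, 748 and 1234 FPKM, or 807, 748 and 823 FPKM without PI16, whose value in non-transgenic rabbits on the diet is an exact 0. These sums hide opposite directions. LUM had a diet difference of 2.11, while 6 of the 7 fibroblast markers, PI16 among them, were below 0 (5 with equal sums). Between genotypes LUM was at -0.92, while 5 of the 7 were above 0. Adipocyte markers summed to 20.8, 26.1 and 8.78 FPKM, of which ADIPOQ alone held 16.1, 24.7 and 6.80 FPKM. Lymphocyte markers summed to 3.17, 7.05 and 4.04 FPKM. Only 2 of the 6 adipocyte names and 2 of the 10 lymphocyte names averaged at least 1 FPKM. Hepatocyte markers, a check on liver transcripts because the liver makes most apolipoproteins, summed to 0.66, 0.79 and 0.54 FPKM. That check is weak, because a row was used for only 3 of the 7 hepatocyte names.

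Set against the macrophage markers, the 8 genes did not follow 1 ratio. Per 1000 FPKM of the summed macrophage list, ABCG1 had 2.71 FPKM in the transgenic and 2.66 FPKM in the non-transgenic cholesterol library, against 1.73 FPKM in the chow library. ABCA1 had 13.8 and 18.7 FPKM per 1000 in the cholesterol libraries, against 52.8 FPKM on chow, and PLTP had 53.2 and 55.6 FPKM, against 304 FPKM. On this measure ABCG1 was higher on the diet than on chow, which rests on its low chow value of 0.14 FPKM. ABCA1 and PLTP were lower, and so were NR1H3, NR1H2, MYLIP and LPCAT3. NR1H3, for example, had 13.9 and 11.8 FPKM per 1000 in the cholesterol libraries, against 118 FPKM on chow. APOC1 was listed at 0 on chow. GPNMB makes up much of the macrophage sum on the diet, so these ratios depend on the list.

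The genes whose pair of differences, for diet and for genotype, lay nearest to those of ABCA1 were PLXNC1, a semaphorin receptor, PREX1, a Rac exchange factor, and LCP2, a leukocyte adaptor. Nearness is the Euclidean distance over 2 differences from 3 libraries, among 8108 genes with a symbol, a mean of at least 5 FPKM and no value of 0. Distances were 0.04, 0.05 and 0.07. PLXNC1 stood at 11.9 FPKM in transgenic and 17.1 FPKM in non-transgenic rabbits on the diet, against 0.08 FPKM on chow. Likeness here depends on the pseudocount of 1, which shrinks the change of such low values, and other settings were not tried.

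Nearest to ABCG1 were OAS2, an interferon-induced enzyme (distance 0.02), HEXA, a lysosomal hexosaminidase subunit (0.07), and RENBP, the renin-binding protein (0.10). Chow values were 0.14 FPKM for ABCG1 but 2.03, 50.5 and 4.43 FPKM for OAS2, HEXA and RENBP, so these distances too depend on the pseudocount. With a pseudocount of 0.1 the diet difference of ABCG1 was 5.66. Nearest to LPCAT3 were EMP3, a membrane protein, SERPINB6, a protease inhibitor, and SMPD1, the acid sphingomyelinase, at distances of 0.01, 0.02 and 0.02. SMPD1 stood at 22.2 FPKM in transgenic and 30.3 FPKM in non-transgenic rabbits on the diet, against 9.80 FPKM on chow, close to the levels of LPCAT3 in each library.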

How the data were processed

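Polyadenylated RNA was made into TruSeq libraries, and the RNA of 5 rabbits was pooled per library, per the labels' protocols. The deposited values are FPKM made by the authors, named as such in the file headers, with OryCun2.0 as genome build per the submitters' processing notes. The sources used here name no aligner, counting program or scaling between libraries. Columns were tied to samples by the library number in the labels, and 2 further sheets of the table, which repeat its rows with ratios, were not used.

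Differences were taken as log2(FPKM + 1), pseudocount 1, over rabbit genes averaging at least 1 FPKM (Python 3.11.15, pandas 2.3.3, numpy 2.4.6, matplotlib 3.10.9), and the differencing was tested on simulated data. Having 1 library per group, no test could be made. The members and lists were chosen with earlier results of these data known. Named genes were the members, the 3 largest differences of each pathway list per comparison, genes at 2-fold in a list with 5 or fewer such genes, and the most abundant markers. NPC1, NCEH1, LIPE, STARD3, STARD4, OSBPL1A, GRAMD1A, GRAMD1B, SCARB1, APOA1, CYP27A1, ACACA, FADS1, FADS2, RXRB, RXRG and the markers PI16, LUM, C1QB, C1QC, MSR1, ADIPOQ, ESAM and CLDN5 were added after their values were seen. Part of the genes chosen by this rule are left unnamed and not reported here.

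FPKM summed to 824460, 903706 and 943181 in the transgenic cholesterol, non-transgenic cholesterol and chow libraries, with 14088, 14113 and 13641 rows above 0. Depth is not stated. Of 10 short olfactory receptor rows, taken as single-exon genes, 4, 4 and 5 had a value in the same order of libraries. Their FPKM times length fell within 0.71% of whole multiples of 127, 124 and 160. The unit was fitted to these same values, and on chow each value was 1 unit, so the closeness is no independent check. If that unit is 1 fragment, the libraries held about 7850000, 8060000 and 6240000 fragments.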

Additional observations from a re-analysis of the deposited data

How the results depend on the processing

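No paired analysis was possible because each group has 1 library, and for the same reason no replicate could be left out. Of 120 alternative values of the 8 genes (pseudocounts of 0.1 and 5, equal sums with and without mitochondrial DNA genes, median-ratio size factors), 115 kept their direction and their side of 2-fold. The exceptions were LPCAT3, transgenic against chow, and small differences that changed sign: ABCG1 between genotypes at 0.09 with equal sums and 0.07 without mitochondrial DNA genes, PLTP at 0.01 with equal sums, and NR1H2, transgenic against chow, at 0.05 without mitochondrial DNA genes. Mitochondrial DNA genes held 9.15%, 10.9% and 3.06% of the FPKM sum in the transgenic cholesterol, non-transgenic cholesterol and chow libraries, and equal sums moved the median of all genes to 0.08 for the diet, 0.10 for the genotype and 0.18 for transgenic against chow, or 0.19, 0.08 and 0.27 without them.

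The diet count of the 8 genes was 6 under each setting except 5 among genes above 0 in every library. At a 1.5-fold limit 1 of them, APOC1, was lower between genotypes. Counts over all genes depended more on the settings. For the diet they were 1846 higher and 811 lower, against 1118 and 413 with a pseudocount of 5, and 2817 and 1925 at 1.5-fold. For the genotype they were 197 and 244, against 323 higher with a pseudocount of 0.1, 75 and 96 with a pseudocount of 5, 275 and 196 with equal sums, 261 and 207 with equal sums without mitochondrial DNA genes, 117 and 118 at a mean of at least 5 FPKM, 160 lower among genes above 0 in every library, and 708 and 778 at 1.5-fold. For transgenic against chow they were 1457 and 293, against 817 and 138 with a pseudocount of 5, 2313 and 1138 at 1.5-fold, and 186, 149 and 193 lower with equal sums, equal sums without mitochondrial DNA genes, and a mean of at least 5 FPKM. A planned promoter motif search and protein alignments were not run, because no sequence was used here.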
